A study of Rattus norvegicus with 14 samples.

Results

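The windows described here are 1 kb stretches of the rat autosomes whose DNA methylation level differed widely between samples within each of 2 selected lines. The windows were chosen by these levels: one was kept when it lay on chromosomes 1 to 20, had a value in all 14 samples, and had a sample standard deviation (SD) of at least 15 percentage points both among the 6 HCR samples and among the 8 LCR samples. Of 131799 autosomal windows with values in all 14 samples, 362 (0.275%) met this rule; the whole table holds 194367 windows. The rule used the levels of all 14 samples, so the SDs, levels and ranges of the 362 windows are given as a description, without a test.

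The assay, RRBS (reduced representation bisulfite sequencing), is one in which MspI fragments are selected and unmethylated cytosines are converted, so that mostly CpG-rich DNA is read. All samples came from the left soleus, a slow postural muscle, of females aged 23 to 24 months. HCR and LCR are rat lines bred for high and low running capacity from genetically heterogeneous N:NIH rats, here in generation 44, and no sample carried a treatment beyond ordinary housing and chow. The labels do not state that each sample came from a different animal, so spreads and p-values refer to these samples only. The tissue label could not be checked against marker genes, because the table names no genes and positions of genes on its build, rn7, were not used here.

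CpG methylation is copied to daughter strands at cell division, and in adult tissue most CpG islands are unmethylated while most CpGs outside them are methylated. A middle level in a bulk sample is an average over both alleles and over many nuclei. In muscle these are nuclei of fibres, satellite cells, endothelium and fibroblasts, and a different mix of cells cannot be told apart from a different level per cell. In outbred animals the level of a stretch of DNA can follow the sequence allele it lies on, and some loci differ between animals without a difference in sequence. Both kinds of locus are known from rodents, and levels alone do not show which kind a window is.

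The libraries differed in how many windows they covered. HCR samples had no value in 4806 to 17161 windows and LCR samples in 2705 to 23521, the highest numbers being those of HCR replicate 3 and LCR replicate 7. Over the complete autosomal windows the mean level ranged from 33.8% to 36.7% in HCR and from 33.0% to 36.2% in LCR. Read depth was unknown, since the values are percentages without counts.

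A wide spread in HCR went with a wide spread in LCR more often than in the table at large. An SD of at least 15 points was found in 2648 windows (2.01%) in HCR and in 1417 (1.08%) in LCR. The 362 shared windows were 13.7% of the former and 25.5% of the latter. No sample contributed to both SDs. Both SDs belong to the same window, however, and the part of its read depth, which was unknown, was not tested. The level of a window limits its SD, and the shares were therefore also taken within classes of mean level over all samples. Between 30% and 50% methylation, LCR had a wide spread in 17.04% of the windows with a wide spread in HCR and in 2.06% of the others. From 10% to 30% these shares were 9.89% and 0.574%, and from 50% to 70% they were 11.6% and 1.18%. The map of the SDs in both lines shows the 362 windows as the thin upper right corner of a continuous cloud.

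**Figure D1:**
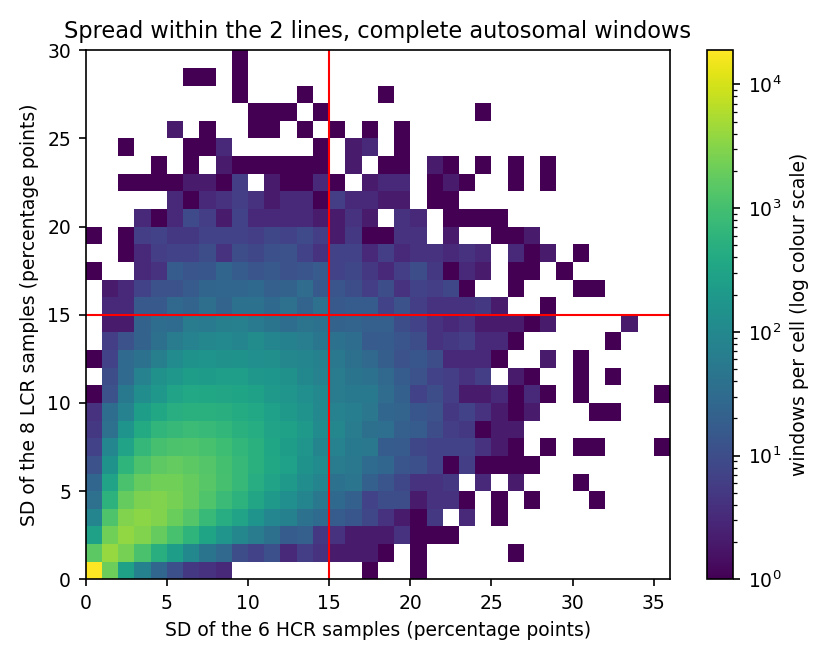
SD of the methylation level among the 6 HCR samples (horizontal axis, percentage points) and the 8 LCR samples (vertical axis, percentage points) for 131799 complete autosomal windows, counted in cells of 1 by 1 point on a log colour scale. The red lines mark 15 points; the 362 windows lie right of and above them, with no gap at the lines.

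Windows on the 2 sides of the threshold were alike in their values. At chr17:81519001-81520000, just inside, the SD was 15.01 points in HCR and 15.06 in LCR, and at chr4:59295001-59296000 it was 19.1 and 15.01. Just outside, chr17:17622001-17623000 had SDs of 18.9 in HCR and 14.99 in LCR, and chr19:18104001-18105000 had 21.5 and 14.99. Over all 362 windows the median SD was 18.7 points in HCR and 17.2 in LCR, and the largest values were 31.03 and 27.4. Over the complete autosomal windows the medians were 4.39 and 4.33.

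The variable windows were mostly of middle level. Their mean over all samples had a median of 40.9%, with quartiles of 33.1% and 50.2%, and ran from 14.2% to 77.2%. They made up 0.821% of the complete windows with a mean of 30% to 50%, 0.272% of those at 50% to 70%, 0.227% of those at 10% to 30% and 0.0432% of those at 70% or more. Of the 35873 windows under 10%, 0 met the rule. The distance from the lowest to the highest sample had a median of 59.1 points and was at least 50 points in 317 of the 362 windows (87.6%). The share was 1.79% over the complete autosomal windows. In windows with an SD of at least 15 points in HCR only it was 41.2%, and in LCR only 63.0%. The rule asks for a wide spread and so favours a wide range. In 54 windows (14.9%) at least 1 sample stood at 15% or less and another at 75% or more; this was so in 0.152% of the complete autosomal windows.

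Values of exactly 0 were frequent in the variable windows. At least 1 sample stood at 0 in 81 of the 362 windows (22.4%). Among the 215 variable windows with a mean of 30% to 50% there were 47 (21.9%), against 0.691% of all 26186 complete windows in this class. A sample at 0 widens the spread of a window of middle level, so the rule favours windows with zeros. Windows with a wide spread in 1 line, over all levels, also held zeros more often than the 6.41% of all complete autosomal windows: 10.4% of those with it in HCR only and 11.2% of those with it in LCR only. LCR replicate 7 stood at 0 in 23 of the 362 windows, HCR replicate 3 in 17 and LCR replicate 6 in 14. LCR replicates 1, 4 and 5 did so in 3 each. The 3 libraries with most zeros lacked a value in 23521, 17161 and 12494 windows of the table and the 3 with fewest in 2823, 2705 and 8296. The part of coverage in these zeros was not tested.

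The 8 windows with the largest smaller SD of the lines, with at most 1 per megabase, lay on chromosomes 2, 5, 7, 12 and 15. At chr7:128681001-128682000 the HCR samples stood at 9.52% (lowest), 54.4% (median) and 81.3% (highest) and the LCR samples at 18.1%, 46.4% and 88.3%. The HCR mean was 50.7% ± 28.5 (SD, n = 6), the LCR mean was 48.6% ± 23.6 (SD, n = 8), and the samples of both lines were spread along the range without a step of 15 points. At chr15:19800001-19801000 the only step, of 17.1 points, set 2 HCR samples and 1 LCR sample near 75% apart from the rest. HCR replicates 2 and 5 stood at 75.7% and 75%, replicates 1 and 4 at 37.1% and 37.5%, and replicates 3 and 6 at 20.2% and 22.9%. In LCR, replicate 6 stood at 76.0% and replicate 5 at 57.9%, replicates 1, 4 and 7 at 44.4% to 46.2%, replicate 3 at 28.9%, and replicates 2 and 8 at 9.16% and 6.51%. Both lines thus had samples near 75% and samples under 25% at this window.

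At chr12:38042001-38043000 the levels fell on 2 sides of a gap of 19.1 points. HCR samples ran from 31.7% over a median of 68.6% to 86.4%, with 2 samples below the gap. LCR samples ran from 16.7% over 38.1% to 78.2%, with 5 below it. At chr2:150123001-150124000 HCR samples stood at 9.13%, 53.2% and 86.2% (lowest, median, highest) and LCR samples at 0.602%, 33.7% and 76.9%. These windows and both described before them kept an SD of at least 15 points in both lines whichever sample was left out.

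In the other 4 of these windows the smaller SD fell under 15 points when a single sample was left out. At chr7:112067001-112068000 the other HCR samples lay from 60% to 75.5% and replicate 5 at 10.8%, and in LCR replicate 2 was at 0% and the rest at 67.2% to 88.7%. Without the former the SD of HCR was 7.20 points, and without the latter that of LCR was 7.28. At chr5:163138001-163139000 HCR replicate 5 stood at 0% and the HCR median was 58.8%, and the smaller SD was 11.5 points without it. At chr2:208257001-208258000 HCR replicate 1 and LCR replicate 7 both stood at 0%, with medians of 55.8% in HCR and 44.5% in LCR, and the smaller SD was 11.4 points without HCR replicate 1. At chr15:29343001-29344000 HCR replicate 6 stood at 74.2% above a median of 30.1%, and LCR replicate 7 at 81.6% above a median of 26.9%. The smaller SD there was 13.3 points without HCR replicate 6.

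**Figure D2:**
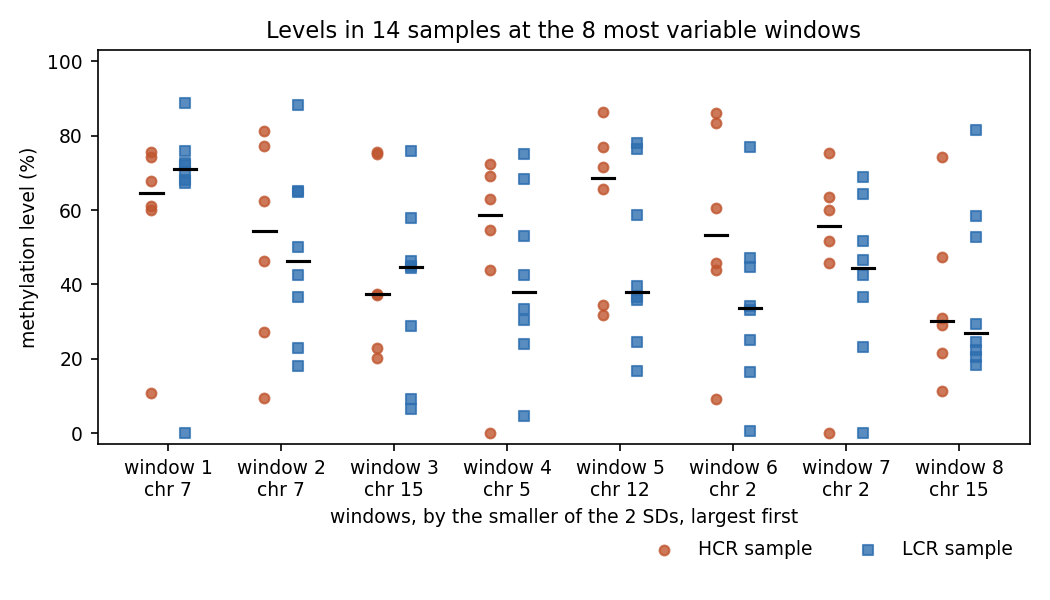
Methylation level (vertical axis, %) of each sample at the 8 windows with the largest smaller SD of the lines; circles are the 6 HCR samples, squares the 8 LCR samples and black bars the medians. The ranges of the lines overlap in all 8 windows, and in window 1 a single low sample per line lies far under the rest, at 10.8% in HCR and 0% in LCR.

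Many of the 362 windows lay near the threshold, with lower quartiles of the SD of 16.5 points in HCR and 15.98 in LCR. Leaving out 1 sample at a time gave 320 to 417 windows that met the rule, of which 278 to 339 were among the 362. Only 32 of the 362 (8.84%) met the rule in every one of these 14 settings. These 32 windows lay on 16 chromosomes and had mean levels of 23.2% to 68.4%, with a median SD of 22.5 points in HCR and 18.7 in LCR. A sample at exactly 0 was present in 7 of them (21.9%) and in 22.4% of the other 330. With each library centred on its mean 342 windows met the rule, 317 of them among the 362, and without HCR replicate 3 and LCR replicate 7 together there were 315, 225 of them among the 362.

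The order of the levels was searched for steps, a step being a gap of at least 15 points between neighbours among the 14 sorted levels. Of the 362 windows 181 (50%) had no step, 155 (42.8%) had 1 and 26 (7.18%) had at least 2. Among windows with a wide spread in HCR only (SD of at least 15 points in HCR and under 15 in LCR, 2286 windows) 2.84% had at least 2 steps, and among 1055 windows with a wide spread in LCR only 3.32% had. At least 1 step was found in 50.8% of the former and 56.1% of the latter, so that a step was no more frequent in the windows variable in both lines (50%) than in those variable in 1 of them. Over all complete autosomal windows 3.81% had a step. No level stood out among the values pooled over the windows: each 10-point class from 20% to 70% held 12.2% to 16.2% of the values of the variable windows, with the most values at 40% to 50%. The windows differed in mean level, so the pooled values do not show whether levels cluster within a window.

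The largest gap set apart a single sample less often than in windows variable in only 1 of the lines. Of the 181 windows with a step, 35 had 1 sample below the largest gap (19.3%) and 32 had 1 sample above it (17.7%). In windows with a wide spread in HCR only these shares were 41.6% and 38.04%, and in LCR only 56.1% and 24.3%. At least 4 samples lay on each side in 43 windows (23.8%), against 2.93% and 5.07%. Both lines had samples on both sides in 104 windows (57.5%), against 7.66% and 4.73%. The rule asks for spread in both lines and so favours such windows, and these differences were not tested.

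**Figure D3:**
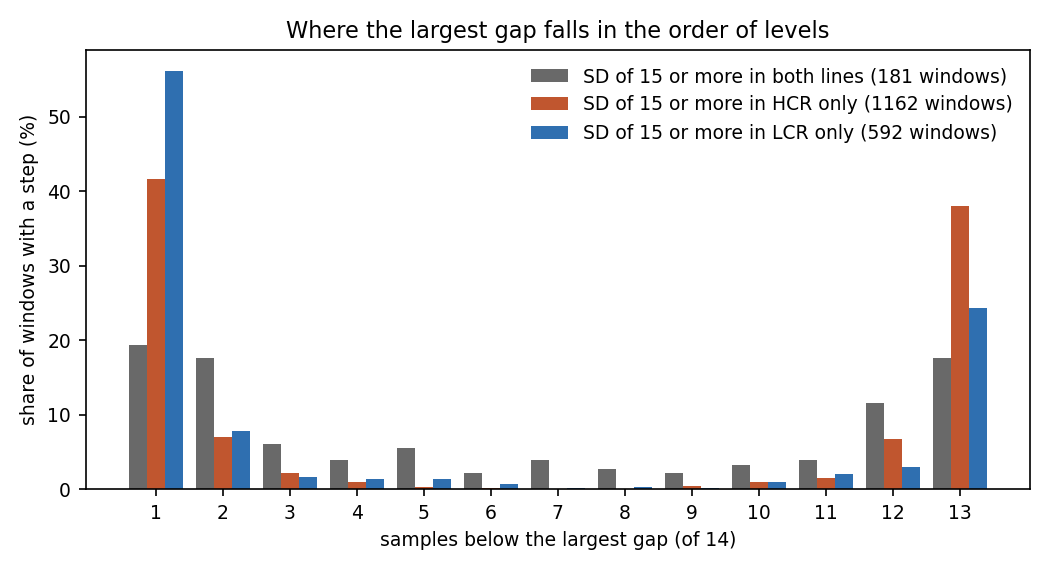
Share of windows with a step (vertical axis, %) by the number of the 14 samples below the largest gap (horizontal axis), for windows with an SD of at least 15 points in both lines, in HCR only and in LCR only. The ends, where 1 sample stands apart, hold 19.3% and 17.7% of the windows variable in both lines, and every place between is filled for them.

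The 3 windows with the largest pair of steps had samples at the limits of the scale. At chr2:29946001-29947000 HCR replicate 1 stood at 0% and LCR replicate 7 at 100%, and the other samples lay from 33.3% to 77.1%. At chr2:110889001-110890000 LCR replicate 4 stood at 4.96%, HCR replicate 6 at 100%, and the others from 46.7% to 77.01%. At chr11:82789001-82790000 LCR replicate 2 stood at 25.6%, HCR replicate 6 at 100%, and the others from 51.4% to 76.99%. In each of them the outer levels belonged to single samples of different lines, and without either of these samples the SD of its line fell under 15 points.

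A step was found in 12 of the 32 windows that met the rule whichever sample was left out, and in 9 of them both lines had samples on both sides of the largest gap. Of these 9 the 2 with the largest gaps are given as examples, chosen after their values were seen. At chr19:20196001-20197000 HCR replicates 5 and 6 stood at 65.9% and 64.9% and the rest of HCR at 19.2% to 35.9%. LCR replicates 1, 5 and 8 stood at 65.9% to 73.5% and the other LCR samples at 25.9% to 44.4%. At chr4:176122001-176123000 the largest gap parted 3 HCR and 3 LCR samples at 6.76% to 27.8% from 3 HCR and 5 LCR samples at 47.2% to 70.3%.

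The same libraries tended to be lowest or highest in many variable windows. Among the HCR samples replicate 3 was lowest in 110 of the 362 windows (30.4%) and replicate 1 in 85 (23.5%), whereas replicates 4 and 2 were lowest in 25 and 28. Replicate 4 was highest in 105 (29.0%) and replicate 3 in 25. Among the LCR samples replicate 7 was lowest in 93 (25.7%), replicate 6 in 70 and replicate 1 in 13. Most of this was seen in other windows of like level too: among all complete windows with a mean of 30% to 50%, HCR replicate 3 was lowest of its line in 31.07%, HCR replicate 4 highest in 24.01% and LCR replicate 7 lowest in 26.4%.

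Sample means over the variable windows ran from 33.6% (replicate 3) to 51.2% (replicate 4) in HCR and from 35.2% (replicate 6) to 48.2% (replicate 1) in LCR. Over all complete windows with a mean of 30% to 50% the same samples stood at 38.1%, 43.6%, 37.5% and 42.9%. The distance between the extreme samples of a line was thus larger in the variable windows. Choosing windows by their spread within each line favours this, and the difference was not tested. In HCR the samples with fewest windows without a value, replicates 2 and 4, had the highest means, and the sample with most, replicate 3, the lowest. In LCR the 3 samples with fewest, replicates 4, 1 and 3, had the 3 highest means. The part of coverage in this order was not tested.

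**Figure D4:**
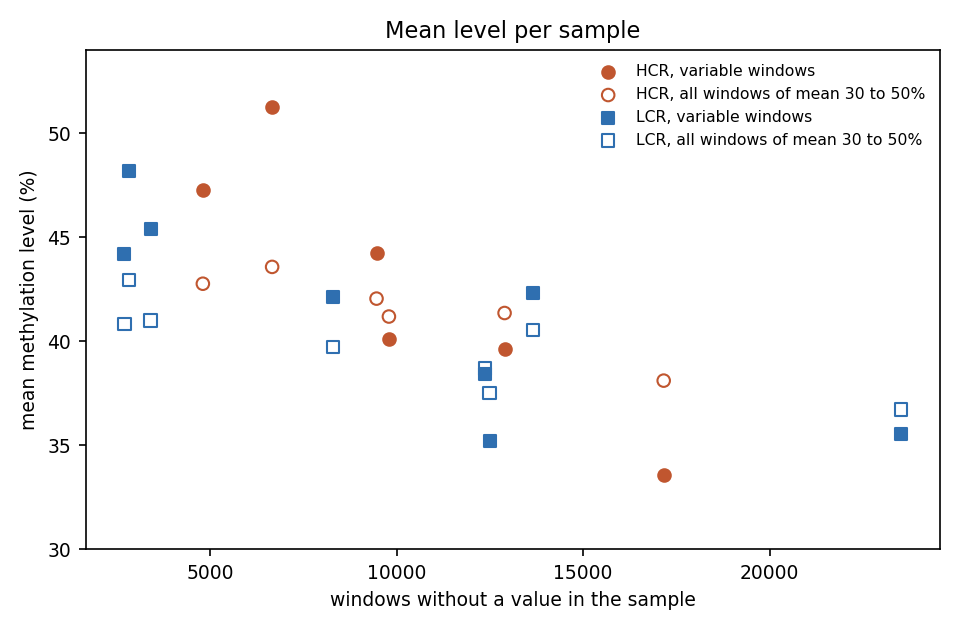
Mean methylation level (vertical axis, %, not starting at 0) of each sample over the 362 variable windows (filled) and over all complete windows with a mean of 30% to 50% (open), by the number of windows of the table without a value in that sample (horizontal axis). Circles are HCR and squares LCR samples; filled points run from 33.6% to 51.2% and open points from 36.7% to 43.6%, and in both sets the samples with most missing windows, HCR replicate 3 and LCR replicate 7, lie near the bottom.

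Distances between samples were of like size within and between the lines at these windows. Over the 362 windows the mean absolute difference between 2 samples was 22.7 points within HCR, 20.6 within LCR and 21.2 between lines. Over all complete windows with a mean of 30% to 50% these values were 8.91, 8.33 and 9.12 points. The rule asks for a wide spread within each line and so raises the distances within lines. Nothing is therefore read from the like size of the distances. The means of the lines were close, with an HCR mean of 42.7% ± 6.26 (SD, n = 6) and an LCR mean of 41.4% ± 4.68 (SD, n = 8), and 205 of the 362 windows (56.6%) had the higher mean in HCR, against 64.8% of the complete autosomal windows.

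In the comparison of the lines 0 of the 362 windows passed limma at a Benjamini-Hochberg adjusted p under 0.05, and 0.569% of all 135802 windows tested did (0.405% higher and 0.164% lower in HCR). The called windows were 550 higher and 223 lower in HCR, but 342 and 326 after subtracting each library's mean. The rule asks for a large spread within lines, which is the denominator of the limma test. Nothing is therefore read from the count of 0 variable windows. At an unadjusted p under 0.05 there were 22 of the 362 windows (6.08%) and 10.9% of all windows. The 2 windows with the largest differences were chosen after their values were seen. At chr1:247253001-247254000 HCR samples stood at 4.63% (lowest), 10.6% (median) and 59.5% (highest) and LCR samples at 20.5%, 64.2% and 75.3%. The mean was 38.4 points lower in HCR (limma adjusted p = 0.0635, from 0.00648 to 0.397 over its alternatives), and the lines overlapped only through HCR replicate 4 at 59.5%, since the rest of HCR reached 19.4%. Without HCR replicate 4 the limma adjusted p was 0.00648, and without LCR replicate 4 it was 0.0276. In both settings the smaller SD of this window fell under 15 points, to 5.69 without HCR replicate 4. The window therefore no longer met the rule in the settings that called it. At chr2:33820001-33821000 HCR samples stood at 29.7%, 65.8% and 69.6% and LCR samples at 0%, 9.92% and 50.4%, with 4 LCR samples at 0%. Here the mean was 35.3 points higher in HCR (limma adjusted p = 0.210, from 0.144 to 0.363 over its alternatives).

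The variable windows were scattered over the genome. All 20 autosomes held some, from 8 on chromosome 9 (0.143% of its complete windows) to 33 on chromosome 1 (0.235%). Chromosome 14 had the highest share, with 26 of 4866 windows (0.534%). This share was the highest of the 20 autosomes in 13 of the 14 settings that left out 1 sample, and ranked 3 without HCR replicate 2 and at SD thresholds of 12 or 20 points. Of the 26 windows, 0 were among the 32 that kept the rule without any 1 sample. These 32 were 8.84% of the 362 windows, and nothing is read from the count of 0. Within 5 Mb of the first or last window of a chromosome lay 42 of the 362 windows (11.6%), against 9.19% of the complete autosomal windows.

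No 2 variable windows were adjacent, among 131 pairs of a variable window and an adjacent complete window. Variable windows made up 0.275% of the complete autosomal windows and 0.821% of those with a mean of 30% to 50%. A count of 0 lies near these shares, and nothing is read from it. The nearest pair of variable windows lay 10 kb apart on chromosome 14. The median distance to the nearest other variable window was 1.78 Mb, and 14 had another within 100 kb. Of 2470 megabases with a complete window, 320 held a variable window and 6 held 3, the largest number. These 6 lay on chromosomes 5 (from 74000001), 10 (from 102000001), 14 (from 1 and from 4000001), 19 (from 47000001) and 20 (from 10000001). The first megabase of chromosome 14 held 3 among 32 complete windows (9.38%). In this megabase the windows did not all have the same sample highest. At chr14:949001-950000 HCR replicate 2 was highest at 64.8%, with the rest of HCR at 6.56% to 18.8%, and at chr14:998001-999000 it was highest again at 64.3%. At chr14:619001-620000 the same sample was the lowest of HCR at 13.2%. There LCR replicate 8 was highest at 69.96%, and HCR replicate 4 was the highest of HCR at 63.7%.

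On chromosome 5 the windows at 74046001 to 74047000 and 74076001 to 74077000 were alike in part. HCR replicate 4 was highest of its line in both, at 61.2% and 71.25%, and LCR replicate 7 lowest of its line in both, at 13.9% and 14.1%. HCR replicate 6 stood at 18.7% in the first, the lowest of its line, and at 45.7% in the second. At chr5:74629001-74630000, over 500 kb away, HCR replicate 4 was again highest of its line at 92.9% and HCR replicate 3 lowest of its line at 22.4%. HCR replicate 4 was highest of its line in 29.0% of all variable windows.

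Windows next to a variable window were on the whole not variable themselves. An adjacent complete window existed for 119 of the 362 (32.9%), close to the 30.2% of complete windows with a mean of 30% to 50%, and there were 131 such pairs. The smaller SD of the adjacent window had a median of 4.83 points, and 10 of the 131 (7.63%) had an SD of at least 15 points in one of the lines, against 2.81% of the complete autosomal windows. The level of a window limits its SD, and these shares were not taken within classes of mean level, so nothing is read from their difference. The mean level of the adjacent window differed from that of the variable window by a median of 18.05 points.

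The order of samples was weakly shared with the adjacent window. The median of Pearson's r over the 131 pairs, across 14 samples with the mean of each line removed, was 0.18, and r was above 0 in 92 pairs (70.2%). For other windows with a mean of 30% to 50% and their adjacent windows the median was 0.11 over 8680 pairs, and r was above 0 in 62.2%. Next to windows with a wide spread in HCR only the median was 0.15, and in LCR only it was 0.20, on either side of the value for the variable windows. At 2 to 10 kb the median was 0.07 for variable windows (697 pairs) and 0.05 for the others, and for variable windows and windows on other chromosomes it was 0.04. Pairs of variable windows on different chromosomes had a median r of 0.09 over 61701 pairs. All pairs share the 14 libraries. After subtracting each library's mean the medians were 0.10 for adjacent windows, 0.06 for the others and close to 0 at 2 to 10 kb, and the pairs on different chromosomes had 0.06.

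A few adjacent windows followed a variable window closely, and the 2 with the highest r are given as a description. At chr19:38034001-38035000 LCR replicate 4 stood at 71.2%, HCR replicate 5 at 45.6% and LCR replicate 1 at 38.4%, and in the next window they stood at 69.2%, 37.9% and 34.6%, again the 3 highest. At chr19:20946001-20947000 LCR replicate 5 was lowest at 3.66% and LCR replicate 3 was highest of its line at 55.1%, and in the window before it they stood at 2.03% and 55.2%. HCR replicate 6 stood at 61.5% in the former and 28.6% in the latter. In 12 of the 131 pairs r was at least 0.6 (9.16%), against 6.57% of the pairs of other windows with a mean of 30% to 50%. The share was higher, at 12.7% and 12.8%, next to windows with a wide spread in HCR only and in LCR only.

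A wide spread in both lines was more frequent where values were missing. The rule was applied, after these results were seen, to the 56712 autosomal windows with a value in at least 4 samples of each line but not in all 14. Of these 1532 (2.70%) had SDs of at least 15 points in both lines, against 0.275% of the complete windows. The share was 1.70% with 1 sample missing, 2.62% with 2, 2.98% with 3 and 4.18% with 4. SDs over fewer samples are also less precise, and the parts of this and of coverage in the rise were not tested. The 362 windows are therefore a minority of the 1894 autosomal windows with such SDs in the table.

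**Figure D5:**
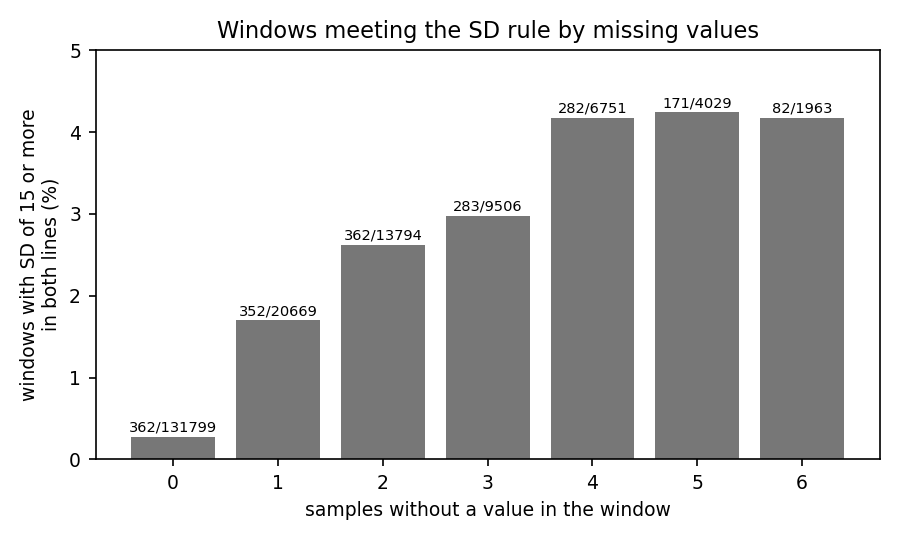
Share of autosomal windows with an SD of at least 15 points in both lines (vertical axis, %) by the number of samples without a value in the window (horizontal axis); the numbers over the bars are windows meeting the rule and all windows. The share is 0.275% with no sample missing and 1.70% to 4.24% with 1 to 6 missing.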

How the data were processed

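The authors deposited 1 table with the percent methylation of 14 RRBS libraries in windows of 1000 bp on rn7. Per the submitters' processing notes, the tools were FastQC, Trim Galore 0.6.10, Bismark and Bowtie2; the sources used here give neither the tool that formed the windows nor its coverage minimum. The table has no read counts, and every window has values in at least 4 samples per line. Columns were matched by library name, and 0 sample columns were left unused. The variable windows, and the lists and alternatives, were chosen with earlier results of these data known.

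Lines were compared over 135802 windows with limma 3.58.1 in R 4.3.3 on log2((level + 0.01)/(1 - level + 0.01)), with a variance trend, Benjamini-Hochberg adjustment and 2-sided tests. Tested on simulated data for that comparison over 135802 windows, the fit called 58 of 100 that differed by 1 log2 logit unit and 99 of 100 that differed by 2. The changed windows were of middle level and without a large spread, so these shares do not carry over to the variable windows. Alternatives tried were SD thresholds of 12 and 20 points, steps of 10 and 20 points, library centring, quantile normalization, other scales, omission of single samples and a block on replicate number. Leaving out 2 libraries together and windows with a 0 were added after seeing the data. Named windows were the 8 with the largest smaller SD, the 3 with the largest pair of steps, those at the threshold and those in the megabases with most; 6 megabases tied, runs of consecutive windows and windows called between lines were absent, and other windows are marked in the text as chosen later. Other steps used Python 3.11.15, numpy 2.4.6 and pandas 2.3.3. Sequence features were not analysed, since no genome of this build was at hand; the gene table is of another assembly.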

Additional observations from a re-analysis of the deposited data

Results flagged for a closer look

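Each named window and 3 measures per library were searched for a sample far from the others of its line, 76 sets of values in all. In 11 sets the distance of the outermost sample to the next was above the 95% critical share of the line's range; chance gives about 1 in 20, and the windows had been chosen for wide spread.

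In a pair of windows both lines had such a sample. At chr7:112067001-112068000 the distance was 0.760 of the range in HCR (replicate 5 at 10.8%) and 0.758 in LCR (replicate 2 at 0%). At chr2:110889001-110890000 it was 0.663 in HCR (replicate 6 at 100%) and 0.708 in LCR (replicate 4 at 4.96%). In the megabases with most variable windows, HCR replicate 6 stood apart at chr10:102851001-102852000 (1.96%, share 0.644), HCR replicate 2 at chr14:949001-950000 (64.8%, share 0.790) and HCR replicate 3 at chr14:4479001-4480000 (8.98%, share 0.696). On chromosome 19 HCR replicate 4 stood at 100% in the window from 47130001 (share 0.691) and LCR replicate 6 at 9.85% in the window from 47784001 (share 0.661). LCR replicate 8 stood at 7.14% at chr20:10748001-10749000 (share 0.614), and HCR replicate 4 at 59.5% at chr1:247253001-247254000 (share 0.731).

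Over all 362 windows such a sample was present in 31 for HCR (8.56%) and 42 for LCR (11.6%), against 7.17% and 8.01% of the complete autosomal windows. In windows with a wide spread in HCR only the shares were 14.9% for HCR and 6.12% for LCR. In those with it in LCR only they were 8.53% for HCR and 19.5% for LCR. The line with the wide spread thus had such a sample more often there than in the 362 windows.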

How the results depend on the processing

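The 362 windows became 1652 at an SD threshold of 12 points, 22 at 20 points and 1894 with values in at least 4 samples per line; the other settings run gave 281 to 417, and leaving out 1 sample 320 to 417. Adjacent pairs rose from 0 to 10 at 12 points. A step was found in 322 windows at 10 points, 81 at 20 points and 189 to 203 without 1 sample. The median r with adjacent windows was 0.10 after library centring and 0.15 to 0.21 without 1 sample. The 773 calls between lines became 444 with the 12 samples numbered 1 to 6 and 502 without HCR replicate 3 and LCR replicate 7. Without 1 sample they were 495 (without HCR replicate 2) to 669. There were 1006 on untransformed levels, 884 with an offset of 0.05, 668 after library centring and 635 without moderation of the variance. After library centring 342 were higher and 326 lower in HCR, against 550 and 223 in the main fit. Of the variable windows 0 to 1 were called in these settings. With a replicate block 71 windows were called; same-numbered samples had correlations of -0.03 to 0.03 in their deviations, not every sample correlated best with its own number, and nothing in the labels ties the numbers, so the block is no pairing. The number of variable windows called was 0 with the block. The correlation of adjacent variable windows could not be computed, since no such pair exists. Of 560 settings for 35 named windows, 75 moved the smaller SD across 15 points. Depth is unknown, so no level has a counting interval.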

Other observations

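The same rule met 5 of 3758 complete windows on the X chromosome (0.133%) and 2 of 220 on unplaced scaffolds, 0.909%, which lay on 1 scaffold. Of the 5 on the X chromosome 2 are given as examples, chosen after their values were seen. At chrX:7460001-7461000 HCR replicate 2 stood at 86.6%, LCR replicate 1 at 81.3% and LCR replicate 3 at 70.3%, and the other 11 samples at 39.95% to 48.0%. At chrX:89710001-89711000 HCR replicates 1, 2, 4 and 5 stood at 57.9% to 68.0% and replicates 3 and 6 at 25.6% and 4.69%, and LCR replicates 1, 4 and 6 stood at 57.6% to 62.9% and the other LCR samples at 1.45% to 15.7%.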
